A study of Mus musculus with 2 samples.

Results

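Mesothelial cells of healthy mouse liver were selected from a single-cell RNA sequencing library by their counts of marker transcripts. Counts were of unique molecular identifiers (UMIs), each tagging 1 captured RNA molecule. A cell with at least 1000 UMIs, of which at most 30% came from mitochondrial genes, was taken as mesothelial when its UMIs of Msln, Upk3b, Upk1b, Gpm6a and Lrrn4 summed to at least 5 and exceeded both 3 times its Epcam UMIs and 3 times its summed Clec4g, Stab2 and Kdr UMIs. The rule found 250 of the 5580 kept cells of the healthy library, or 4.48% with an exact binomial 95% interval of 3.95 to 5.06%. The other 5330 kept cells were the comparison. Among them, 1324 cells passed a gate of the same form for cholangiocytes, the epithelial cells of bile ducts, and 3300 passed one for endothelial cells. Since the cells were chosen by measured values, the levels of the 9 genes in the rule are a description of the choice. The series held 12710 kept cells in all.

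Of the 2 libraries in the series, 1 came from healthy animals and 1 from animals given CCl4 (carbon tetrachloride), a toxin that hepatocytes convert into reactive products. Both groups carried Col1a2CreER:Rosa26tdTomato, a tamoxifen-dependent Cre recombinase under the Col1a2 promoter together with a red fluorescent reporter, and the labels do not say whether the recombinase was induced. The labels name whole liver cells, released with pronase and collagenase after EGTA perfusion and collected on a Nycodenz gradient. The study's methods add a depletion of CD45-positive cells, and how many mice went into each library was not given in the sources used here. Because each condition had 1 library, no difference below has a replicate check, and no test was run. Intervals are exact Poisson (levels), exact binomial (shares) or exact conditional binomial (ratios) at 95% and cover counting error only.

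Mesothelial cells form the flat epithelium that coats the liver capsule and the other surfaces of the body cavities. They come from mesoderm, carry keratins together with the mesenchymal filament vimentin, and cover their microvilli with a coat of mucins and hyaluronan that lets organs slide. They lie on a thin basement membrane and are known to secrete matrix, complement proteins and growth factors.

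The 5 markers summed to a median of 126 UMIs per mesothelial cell, with a 5th percentile of 24.5 and a 95th of 221. Msln, which encodes the surface glycoprotein mesothelin, had 2449 CPM (UMIs of the gene per 1000000 UMIs) over the 250 cells together, and the membrane plaque gene Upk3b had 1952. Gpm6a, a membrane glycoprotein gene, had 1741 CPM. Upk1b, a tetraspanin of the same plaques as Upk3b, had 652 CPM, and Lrrn4, a leucine-rich repeat membrane protein, had 486. All 5 markers were counted in 233 of the 250 cells, and 242 cells held 20 or more marker UMIs. Just inside the threshold lay 3 cells with 5 to 9 marker UMIs and 5 cells with 10 to 19, and these 8 shallow cells had a median total of 1849 UMIs. Just outside it, 172 kept cells had 3 or 4 marker UMIs, 138 of them in the cholangiocyte gate, and 503 of their 559 marker UMIs were of Gpm6a. A further 91 cells reached 5 marker UMIs and were left out for Epcam or the endothelial genes, with a median of 6 marker UMIs, and 10 of these had 20 or more. The plot of marker UMIs per cell shows the counts that the rule used, so the distance between selected and other cells in it describes the choice.

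**Figure D1:**
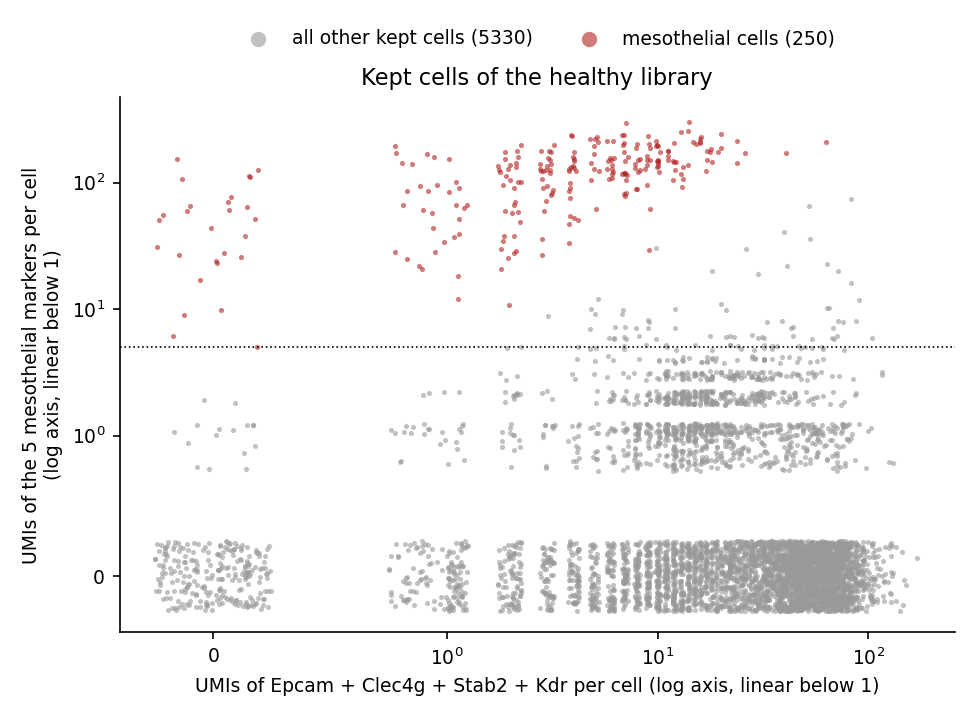
Each point is a kept cell of the healthy library, on log axes that are linear below 1, with random jitter. The vertical axis is its summed UMIs of the 5 mesothelial markers. The horizontal axis is the larger of its Epcam UMIs and its summed Clec4g, Stab2 and Kdr UMIs, although the axis label joins all of these genes. The 250 mesothelial cells (red) had a median of 126 marker UMIs, and the dotted line is the minimum of 5. Nearly all grey cells lie at 0 to 4 marker UMIs, below the line.

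The label was set beside genes that the rule did not use. Slpi, the secretory leukocyte protease inhibitor, reached 20 UMIs in 225 of the 250 mesothelial cells and in 6 of the other 5330. Of these 6 cells, 4 had 5 or more marker UMIs and were left out for other markers. Slpi is among the highest ratios of this same comparison, so its counts are not an independent check of the label. A cut on raw UMIs also favours deeper cells. The mesothelial cells were deep, with a median of 18344 UMIs and 4645 genes, against 11681 UMIs in cholangiocyte gate cells and 6200 in endothelial gate cells. Their median mitochondrial share was 4.5%. The pan-leukocyte gene Ptprc had 0 UMIs in all 250 cells, as did the 5 erythroid markers. Ptprc was counted in only 16 of the 5580 kept cells of the healthy library. The erythroid markers summed to 1.81 CPM in all other cells. These genes were rare throughout the library, so their zeros do not set the mesothelial cells apart. Of the 12 immune markers 5 were at 0, and the 12 summed to 106 CPM, against 172 CPM in all other cells. In cholangiocyte gate cells they summed to 165 CPM and in endothelial gate cells to 58.7 CPM. Hepatocyte markers summed to 726 CPM in mesothelial cells and 8209 CPM in the others, the 11 cholangiocyte markers outside the rule to 2594 and 12764 CPM, and the 9 endothelial markers outside the rule to 82.6 and 5189 CPM. The other cells are mostly endothelial and cholangiocyte gate cells, so their sums follow from the choice of cells. Hepatocyte markers summed to 1387 CPM in endothelial gate cells and 9471 CPM in cholangiocyte gate cells. The 11 cholangiocyte markers summed to 388 CPM in endothelial gate cells, and the 9 endothelial markers to 86.2 CPM in cholangiocyte gate cells. Most of the cholangiocyte sum in mesothelial cells was Krt19 and Krt7, keratins that mesothelium shares. The 12 mesenchymal markers summed to 633 CPM, with Hgf at 0, against 198 CPM in all other cells. No mesothelial cell had a UMI of the proliferation gene Mki67, with 3 UMIs over the group as the limit that a count of 0 allows, and 1 had a UMI of Top2a. Among the 5580 kept cells, 22 had a UMI of Mki67 and 54 had one of Top2a. Both genes were thus rare over the library, and these counts are too few to set the mesothelial cells apart.

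Against all other cells, the highest ratios in healthy mesothelial cells belonged to genes of several kinds, among them the secreted proteins Slpi, Igfbp6 and Rspo1, the matrix proteins Mfap5 and Ogn, the transcription factors Wt1 and Bnc1, and transporters, receptors and enzymes. Among 9451 genes with a mean level of at least 10 CPM, 1009 (10.7%) were at least 2-fold higher in mesothelial cells and 1940 (20.5%) at least 2-fold lower. With scaling by the trimmed mean of M-values (TMM), which shifted the median log2 ratio of all compared genes from -0.33 to 0.00, the numbers were 1305 and 1395. With 1 library per condition these counts describe sizes of ratios, not tests. Ratios below are on the CPM scale and are to be read against that shift. A gene near 0 in one population was compared only where the other carried it, so counts over a list describe its compared members and not all that were listed. List counts against all other cells are to be read beside the 10.7% higher and 20.5% lower of all compared genes. Genes at 100 CPM or more were ranked by their ratio. The highest ratio belonged to Mfap5, a glycoprotein of elastic microfibrils, with 178 CPM against 0.20 CPM, a ratio of 885 (464 to 1943). Myl7, the myosin light chain best known from heart atrium, came next at 2140 against 2.43 CPM, a ratio of 880 (728 to 1073). Bnc1, a zinc finger transcription factor of stratified epithelia and mesothelium, had 173 against 0.20 CPM and a ratio of 863 (452 to 1895). These 3 intervals overlap, so their order is not resolved by the counts.

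Slpi was the most abundant of the 20 leading genes, at 17506 CPM against 32.0 CPM and with a ratio of 547 (519 to 576), and only Malat1, a nuclear noncoding RNA that was also high in the other cells, was counted more often. Igfbp6, which binds insulin-like growth factors, had 6429 against 12.8 CPM and a ratio of 502 (462 to 546). Rspo1, a secreted enhancer of Wnt signalling, had 1104 against 2.21 CPM and a ratio of 500 (410 to 616). The small proteoglycan gene Ogn had 1093 against 2.28 CPM. Wt1, the transcription factor that marks mesothelium throughout the embryo, had 292 against 0.80 CPM and a ratio of 364 (261 to 522). The remaining leading genes were at 107 to 304 CPM with ratios of 325 to 573. They included Slc26a3, a chloride-bicarbonate exchanger, Cybrd1, a ferric reductase, Anxa8, an annexin, Lrp2, the endocytic receptor megalin, Chst4, a sulfotransferase, Vgll3, a cofactor of TEAD transcription factors, Il18r1, a chain of the interleukin 18 receptor, and Dmkn, a secreted epidermal protein. Medag, Fibin, Sfmbt2 and Angptl7 completed the 20.

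**Figure D2:**
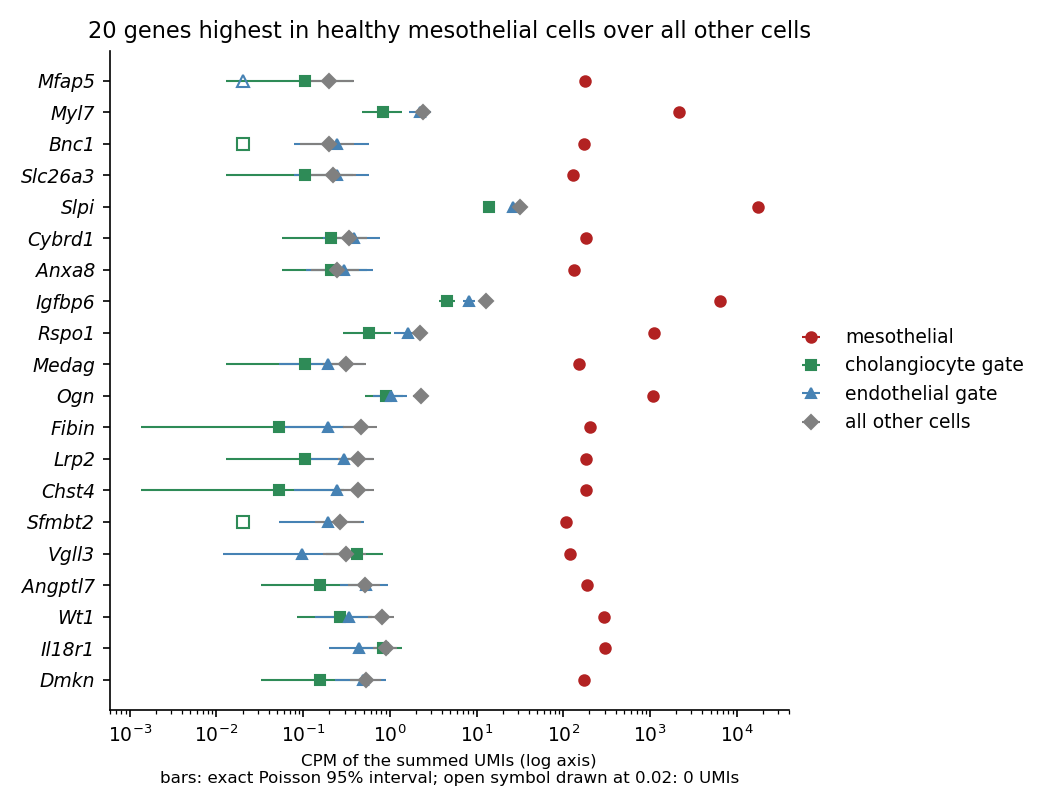
CPM of the summed UMIs (log axis) for the 20 genes with the highest ratio in healthy mesothelial cells over all other cells, in 4 populations of the healthy library, with exact Poisson 95% intervals, where open symbols at 0.02 mark 0 UMIs. Mesothelial cells lie between 107 CPM (Sfmbt2) and 17506 CPM (Slpi), and every other population lies at or below 32.0 CPM in each of the 20 genes.

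The most abundant of the leading transcripts were found in nearly every mesothelial cell. Slpi was counted in 248 of the 250 cells, Igfbp6 in 249, Rspo1 in 248 and Myl7 in 237. After each cell was thinned to 2000 UMIs, which left out 4 mesothelial and 304 endothelial gate cells, the expected share of cells with a UMI was 97.5% for Slpi, against 4.12% in endothelial gate cells, a type that should lack it. For Rspo1 the thinned shares were 87.0 and 0.23%, and for Wt1 they were 41.5 and 0.08%. Leading genes of lower level were counted in fewer cells without thinning, with Il18r1 in 88.0%, Fibin in 78.8% and Slc26a3 in 52.0% (45.6 to 58.3%).

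Promoters of 3 of the 5 rule markers (Upk3b, Lrrn4, Gpm6a) and of 18 of the 20 leading genes were in RefSeq's promoter table (GRCm38.p6, windows of 300 bases around each annotated start). Msln, Upk1b, Mfap5 and Wt1 are named only. Windows were searched on both strands for CATTCC, the motif of TEAD factors, AGATAA, that of GATA factors, and GTGGGNG, which WT1 and EGR factors share. CATTCC stood in 3 of the 4 windows of the rule markers and in 5 of the 24 windows of the leading genes (20.8%), against 14.7% of all 32851 windows. GTGGGNG stood in 1 of 4 and in 9 of 24, against 31.6% of all windows. AGATAA stood in none of the 28, against 11.2% of all. The windows below show where the matches, in capitals, lie in 3 markers and in the leading genes Myl7 and Bnc1. A further Gpm6a window, not printed, held none of the 3 motifs. The window of Slpi, the most abundant leading gene, held none of the 3 motifs either. Nor did those of Rspo1, Lrp2, Chst4, Anxa8, Cybrd1 and Il18r1, which are not printed.
Upk3b, chr5:136038246-136038545, plus strand: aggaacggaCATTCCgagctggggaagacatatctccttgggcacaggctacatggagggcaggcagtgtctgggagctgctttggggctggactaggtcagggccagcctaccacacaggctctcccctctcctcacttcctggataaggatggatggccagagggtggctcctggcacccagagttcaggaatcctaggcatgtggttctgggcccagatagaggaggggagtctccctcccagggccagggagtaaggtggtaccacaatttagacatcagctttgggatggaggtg
Lrrn4, chr2:132880813-132881112, minus strand: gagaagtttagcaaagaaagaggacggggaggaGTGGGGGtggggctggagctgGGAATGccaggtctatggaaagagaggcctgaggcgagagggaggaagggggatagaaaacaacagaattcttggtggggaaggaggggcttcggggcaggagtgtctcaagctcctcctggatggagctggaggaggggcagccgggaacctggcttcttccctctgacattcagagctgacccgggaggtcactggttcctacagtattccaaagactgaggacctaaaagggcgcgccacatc
Gpm6a, chr8:54779184-54779483, plus strand: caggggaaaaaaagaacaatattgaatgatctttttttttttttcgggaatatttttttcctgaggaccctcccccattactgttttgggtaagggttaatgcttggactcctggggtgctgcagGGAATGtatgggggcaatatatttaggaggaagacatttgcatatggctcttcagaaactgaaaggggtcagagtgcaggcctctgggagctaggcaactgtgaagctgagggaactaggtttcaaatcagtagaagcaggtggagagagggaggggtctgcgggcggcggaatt
Myl7, chr11:5898733-5899032, minus strand: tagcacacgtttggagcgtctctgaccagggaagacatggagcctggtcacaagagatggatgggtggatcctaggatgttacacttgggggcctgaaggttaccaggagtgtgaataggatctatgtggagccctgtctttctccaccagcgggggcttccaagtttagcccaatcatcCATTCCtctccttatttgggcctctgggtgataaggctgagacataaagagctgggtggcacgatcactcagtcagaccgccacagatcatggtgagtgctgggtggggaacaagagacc
Bnc1, chr7:81992250-81992549, minus strand: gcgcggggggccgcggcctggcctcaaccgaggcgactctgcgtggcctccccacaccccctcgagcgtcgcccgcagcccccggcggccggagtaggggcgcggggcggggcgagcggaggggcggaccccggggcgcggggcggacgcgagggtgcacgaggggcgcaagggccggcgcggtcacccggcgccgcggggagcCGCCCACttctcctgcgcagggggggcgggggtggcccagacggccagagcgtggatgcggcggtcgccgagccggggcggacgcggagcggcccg
Slpi, chr2:164356458-164356757, minus strand: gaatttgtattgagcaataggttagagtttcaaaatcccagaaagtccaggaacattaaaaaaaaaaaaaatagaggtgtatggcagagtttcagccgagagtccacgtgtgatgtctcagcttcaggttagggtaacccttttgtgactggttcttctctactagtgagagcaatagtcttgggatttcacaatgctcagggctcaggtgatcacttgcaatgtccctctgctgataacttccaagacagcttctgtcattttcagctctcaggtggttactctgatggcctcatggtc

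Genes long known from mesothelium, outside the rule, formed a list of 30 with 29 compared, of which 25 were at least 2-fold higher and 4 lower than in all other cells, with a median log2 ratio of 7.26 where all compared genes had -0.33. The list was chosen with earlier results of these data known, so its counts are not an independent check of the label. Crip1, a LIM domain protein, had 12760 CPM and a ratio of 72.2, Gas1, a membrane receptor of hedgehog signalling, 2067 CPM and a ratio of 247, and Ezr, the ezrin of microvilli, 1767 CPM and a ratio of 10.3. The ion pump partner Nkain4 had 1053 CPM and a ratio of 177, and the tight junction claudin Cldn15 729 CPM and a ratio of 209. The 4 lower genes were Krt8, Krt18, Clu and Podxl. Of these, Krt8 (355 CPM), Krt18 (395 CPM) and the chaperone Clu (1240 CPM) were still 14.8, 14.2 and 4.96 times their levels in endothelial gate cells, and cholangiocyte gate cells carried 1881, 1812 and 15267 CPM of them. Among the keratins, mesothelial cells therefore had the profile Krt19 (1338 CPM), Krt7 (932 CPM), Krt18 and Krt8, whereas cholangiocyte gate cells had 587 CPM of Krt19 and 194 CPM of Krt7. The vimentin gene Vim stood at 4562 CPM, 19.2 times the other cells and 173 times cholangiocyte gate cells.

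Of the 20 transcription factors on a list for mesothelium and its mesoderm, 16 were compared, 5 were higher and 5 lower. The higher ones were Wt1, Bnc1, Foxf1 (66.2 CPM, ratio 106), Hand2 (74.6 CPM, ratio 49.2) and the homeobox gene Hoxa5 (92.5 CPM, ratio 2.69). Foxf1 and Hand2 are factors of visceral mesoderm, and both were under 1 CPM in cholangiocyte and endothelial gate cells. Gata6 was at 191 CPM and Gata4 at 34.0 CPM in mesothelial cells, whereas endothelial gate cells had 4.39 and 215 CPM, so the balance of the pair ran opposite ways in these populations. Yap1 (47.7 CPM), Wwtr1 (97.5 CPM) and Tead1 (166 CPM), the Hippo pathway's effectors, lay within 2-fold of the other cells. Of 11 compared targets and partners of YAP and TEAD, 4 were higher and 4 lower, where 10.7% and 20.5% of all compared genes were.

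Matrix genes leaned toward mesothelial cells, with 22 of 30 compared genes at least 2-fold higher, 5 lower and a median log2 ratio of 3.46. The proteoglycan Dcn stood at 6730 CPM, 106 times the other cells. Efemp1, a fibulin, had 4200 CPM and a ratio of 56.8, and Timp2, an inhibitor of metalloproteinases, had 2830 CPM and a ratio of 23.1. Fibrillar collagen was present at moderate level, with 886 CPM of Col3a1, 129 CPM of Col1a1 and 71.0 CPM of Col1a2, and in cholangiocyte gate cells these genes had 0.89, 0 and 0.05 CPM. Col6a1 and Col6a2 had 386 and 180 CPM.

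The basement membrane genes split by chain. Col4a1 (56.3 CPM) and Col4a2 (35.2 CPM), the chains of most vessels, were 0.168 and 0.206 times the other cells, and the linker genes Nid1 and Hspg2 were 0.261 and 0.205 times. Col4a4 (181 CPM) and Col4a3 (26.7 CPM), known from the basement membranes of kidney and lung, were 33.5 (29.0 to 38.9) and 7.09 (5.53 to 9.06) times the others. The laminin chains Lama5, Lamb2 and Lamc1 were 2.95, 2.44 and 4.96 times higher, at 103, 201 and 163 CPM. Fibronectin (Fn1) was the lowest matrix gene relative to the rest, at 7.22 CPM and a ratio of 0.045. Elastic fibre genes were among the higher ones, with Eln at 307 CPM (ratio 17.1), Fbln5 at 238 CPM (ratio 15) and Mfap5 as above.

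**Figure D3:**
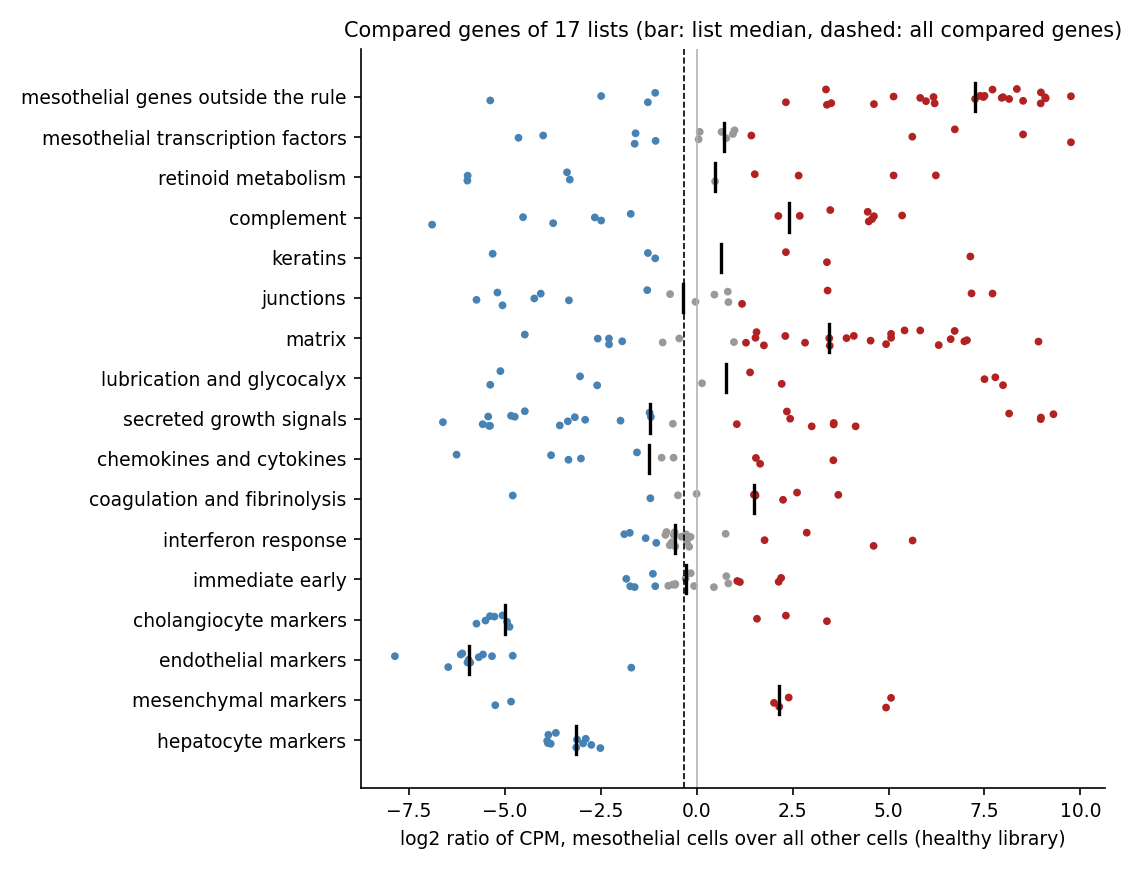
log2 ratio of CPM, mesothelial cells over all other cells of the healthy library, for the compared genes of 17 lists (red at least 2-fold higher, blue at least 2-fold lower, grey between). Black bars are list medians and the dashed line is the median of all 9451 compared genes at -0.33. Mesothelial and matrix genes lie mostly to the right, with medians of 7.26 and 3.46, and hepatocyte and endothelial markers, the latter including rule genes, to the left.

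Complement was another group with a clear split. Of 14 compared genes, 8 were at least 2-fold higher and 6 lower. C3, the component on which the pathways converge, stood at 9711 CPM against 395 CPM in the others, a ratio of 24.6 (24.16 to 25.03), and was the fifth most abundant transcript of mesothelial cells. The early components C2 (967 CPM, ratio 22.0), C4b (950 CPM, 23.8), C1s1 (537 CPM, 40.9) and C1ra (400 CPM, 11.2) were higher, and so was the alternative pathway's Cfb (163 CPM, 4.37). The inhibitor of C1, Serping1, had 2037 CPM and a ratio of 22.4. The lower genes included the membrane regulators Cd55 (132 CPM, 0.304) and Cd59a (53.9 CPM, 0.159), the macrophage products C1qa and C1qb, Cfi and, as above, Clu.

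Growth signal genes were split, with 11 of 27 compared genes higher, 15 lower and a median log2 ratio of -1.23. Igfbp5 (9501 CPM, ratio 282.5) and Igfbp6 were the most abundant. Besides Rspo1 the Wnt pathway was represented by Wnt5a (64.0 CPM, ratio 7.99), which lay far above the 0.24 CPM of endothelial gate cells, and by the Wnt inhibitor Sfrp1 (32.3 CPM, ratio 5.42). Bmp4 stood at 205 CPM with a ratio of 11.9, while Bmp2, an endothelial ligand, stood at 12.8 CPM with a ratio of 0.021. Tgfb2 (291 CPM, 5.10) and Tgfb3 (126 CPM, 11.9) were higher and Tgfb1 (10.8 CPM, 0.084) was lower, so the 3 ligands of this family divided between mesothelial and other cells. Fgf18 (98.2 CPM, ratio 629, interval 302 to 1574) and Fgf9 (80.4 CPM, 17.7) were fibroblast growth factors of the mesothelial cells. Rspo3 (1.20 CPM, 0.010), which serves the central vein, and Igf1 (10.8 CPM, 0.098) were near the bottom, and Hgf had 0 UMIs.

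In retinoid metabolism 4 of 9 compared genes were higher and 4 lower. The retinoic acid-making enzymes Aldh1a1 (463 CPM, ratio 2.86) and Aldh1a2 (84.5 CPM, ratio 35.1) were higher, as was the chemerin gene Rarres2 (4568 CPM, 75.2). Dhrs3, which reduces retinal back to retinol, stood at 34.0 CPM and a ratio of 0.096, and the plasma carrier Rbp4 at 55.1 CPM and 0.101.

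Of 10 compared lubrication and surface coat genes 5 were higher and 4 lower, led by Gpc3 (929 CPM, ratio 181), a glypican, Muc16 (243 CPM, ratio 253), a large membrane mucin, and Has1 (83.5 CPM, ratio 220), which makes hyaluronan. Prg4, the lubricant of joints, had 13.2 CPM and was counted in 10.8% of mesothelial cells. Among 16 compared junction genes 4 were higher and 7 lower. The classical cadherins of these cells were Cdh3 (170 CPM, ratio 10.7) and Cdh11 (67.2 CPM, 143), and their claudin was Cldn15, whereas Cldn3 (11.3 CPM, 0.030) and Dsg2 (29.1 CPM, 0.100), junction genes of cholangiocytes, were low. The water channel Aqp1 stood at 1080 CPM, below the 3667 CPM of endothelial gate cells and above the 26.9 CPM of cholangiocyte gate cells. Among 9 compared transport genes 3 were higher and 2 lower, where 10.7% and 20.5% of all compared genes were. The bicarbonate cotransporter Slc4a4 stood at 299 CPM, 8.67 times the other cells.

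Coagulation and fibrinolysis genes were higher in 6 of 10 compared cases and lower in 2, where 10.7% and 20.5% of all compared genes were. Tissue factor, F3, stood at 288 CPM and a ratio of 4.76, the plasminogen activator Plat at 84.5 CPM and 12.9, and the protein C receptor Procr at 40.0 CPM and 6.13. Anxa2 (902 CPM) and S100a10 (1374 CPM), whose products bind plasminogen together at the cell surface, were 2.90 and 2.87 times the others. Thbd, which turns thrombin toward protein C, was 0.434 times. Prostacyclin synthase, Ptgis, stood at 732 CPM and a ratio of 296 (245 to 361), and was counted in 97.2% of mesothelial cells. The cyclooxygenase upstream of it, Ptgs1, stood at 194 CPM, within 2-fold of the others, and Ptgs2 had 58 UMIs in all, in 9.2% of the cells.

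Of 22 chemokines and cytokines listed 10 were compared, and 3 of these were higher, where 10.7% of all compared genes were, namely Il18 (219 CPM, ratio 11.8), Csf1 (229 CPM, 3.15) and Il33 (74.2 CPM, 2.92), and 5 were lower, where 20.5% of all compared genes were. The inflammatory attractants Ccl2 and Cxcl1 had 3 and 16 UMIs over the 250 cells, and Ccl5, Ccl7, Ccl20, Cxcl2, Cxcl5 and Il6 had 0. Of 21 compared interferon response genes 13 lay within 2-fold, 4 were lower and 4 were higher: Gbp2 (1591 CPM, ratio 49.4), Ifi27l2a (957 CPM, 24.4), Gbp3 (112 CPM, 7.30) and Ifitm1 (29.6 CPM, 3.41). In contrast Isg15 (58.5 CPM) and Ifit1 (47.0 CPM) were 0.569 and 0.839 times the others, within the 2-fold limits. Of 19 compared immediate early genes, known to respond to tissue dissociation, 4 were higher, 5 lower and 10 within 2-fold. Of all compared genes 10.7% were higher and 20.5% lower. Fos, 1 of the 10 within 2-fold, stood at 1611 against 1686 CPM. Of the remaining lists, epithelial-mesenchymal transition genes were higher in 6 and lower in 5 of 13 compared, antimicrobial and acute phase genes in 2 and 6 of 8, and cell cycle genes in 0 and 4 of 6. Metallothionein and oxidative stress genes were higher in 1 and lower in 6 of 15 compared, and lipid and prostaglandin genes were higher in 2 and lower in 7 of 12.

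At the other end, Lyve1, the hyaluronan receptor of sinusoidal endothelium, had 4 UMIs in mesothelial cells, 0.96 CPM against 224 CPM and a ratio of 0.0043 (0.0012 to 0.011). Emilin1, Zeb2, Msmp, Ankrd1, Kcne3, Fam167b, F2r, Rspo3 and Chst15 followed with ratios of 0.0067 to 0.011.

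Mesothelial cells were also set against each of the large populations of the library. Against cholangiocyte gate cells, 1156 of 9232 compared genes (12.5%) were at least 2-fold higher in mesothelial cells and 1753 (19%) lower, which TMM scaling turned into 1481 and 1239. Transcription factors of the mesothelial list were higher in 9 of 15 cases, matrix genes in 24 of 30 and complement genes in 9 of 12. The highest ratios were those of Fibin, Chst4, Myl7, Tmem119, Gcnt1, Rspo1, Col6a1, Lrp2, Col6a2 and Mfap5, several of which rest on 1 or 2 cholangiocyte UMIs. Myl7, with 16 UMIs in cholangiocyte gate cells, had a ratio of 2541 (1564 to 4448). The lowest were Slc44a3, Mal, Msmp, Ankrd1 and Kcne3, with 1 to 7 mesothelial UMIs each.

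Against endothelial gate cells, 1332 of 9085 compared genes (14.7%) were higher and 2114 (23.3%) lower, or 1541 and 1704 with TMM scaling. Of 29 compared mesothelial genes outside the rule 28 were higher, as were 8 of 12 junction genes. Atp6v0a4, a proton pump subunit, headed the ranking with 167 CPM against 1 endothelial UMI, a ratio of 3433 (614 to 135807). Nkain4 had a ratio of 1080 (698.5 to 1770), Muc16 of 996 (425 to 3074), the decoy receptor gene Tnfrsf11b of 1062 (292 to 8799) and Prph, an intermediate filament of peripheral neurons, of 978 (546 to 1962). Mfap5 had 0 endothelial UMIs and was at least 1215-fold higher, counting 3 UMIs over the group as the limit. Vgll3, Ogn, Ahnak2 and Fibin were the other genes of this ranking. Afap1l1, S1pr1, Lyve1, C5ar2 and Emilin1 were lowest, with 1 to 5 mesothelial UMIs each.

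Kdr, the main receptor of vascular endothelial growth factor and a gene that the rule used to limit endothelial RNA, was present in the mesothelial cells that passed it. Their 1272 Kdr UMIs made 306 CPM, against 2112 CPM in endothelial gate cells and 10.8 CPM in cholangiocyte gate cells. A Kdr UMI was found in 214 of the 250 cells (85.6%, 80.6 to 89.7%), and 3 or more UMIs in 148 of them (59.2%), against 10 of 1324 cholangiocyte gate cells. After thinning, 40.8% of mesothelial, 94.8% of endothelial gate and 2.46% of cholangiocyte gate cells had one. The endothelial genes Ptprb, Cdh5 and Pecam1, which the rule did not use, stood at 26.0, 4.82 and 6.98 CPM in mesothelial cells, at 24.8, 7.53 and 8.47 CPM in cholangiocyte gate cells and at 3691, 870 and 643 CPM in endothelial gate cells. Per UMI of Ptprb there were 11.8 Kdr UMIs in mesothelial cells, 0.437 in cholangiocyte gate cells and 0.572 in endothelial gate cells. The rule capped Kdr relative to the marker UMIs of a cell, so these Kdr values describe the selected cells and are bounded by the choice. The part of RNA from other cells in them was not tested.

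Among the 250 cells, most abundant genes varied little beyond counting noise. Over 627 genes with at least 200 CPM the median excess coefficient of variation was 0.252, where the excess is the variance between cells above that expected from each cell's total. Rspo1 was at 5.73, 10.8 and 15.5 UMIs per 10000 at the 10th, 50th and 90th percentiles of cells, and Igfbp6 at 32.3, 63.5 and 113. Slpi was broader, at 19.2, 160 and 312 per 10000, and so was Myl7, at 2.93, 16.1 and 40.6. In order of excess, the 10 most variable genes were Spp1, Alb, Wfdc2, Meg3, Igfbp4, AY036118, Fbxo33, Atf3, Nfkbia and Lgals2, and they were the same 10 in the 220 cells with at least 5000 UMIs.

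Spp1, osteopontin, a product of cholangiocytes, had an excess coefficient of variation of 6.19. A single cell held 449 of its 1127 UMIs, and 6 cells stood at 10 per 10000 or more. These 6 cells, with 1.88% of all mesothelial UMIs, also held 36 of the 49 Epcam UMIs, 34 of the 50 Sox9 UMIs and 27 of the 47 Cldn3 UMIs. Alb, the hepatocyte product albumin, had 3.15, and the 20 cells at 10 per 10000 or more held 3.61% of the UMIs and 43.9 to 52.8% of those of Ttr, Apoa1, Serpina1c and Fabp1. The high values of both genes thus came in cells that also held other markers of those cell types. Wfdc2, a protease inhibitor of the same family as Slpi, had an excess of 2.22. It had 0 UMIs in 113 cells and at least 10 per 10000 in 20. These 20, with 7.46% of all UMIs, held 2.84% of the Spp1 UMIs and none of the 49 Epcam UMIs. The rule capped Epcam and its UMIs were few, so that count of 0 cannot set these cells apart. The imprinted noncoding RNA Meg3 (excess 1.61) was at 0 in 66 cells and at 10 per 10000 or more in 36, which held 16.8% of the Col1a1 and 12.9% of the Dcn UMIs with 13.5% of all UMIs. Igfbp4 (1.43) was at 0 in 110 cells. Across the 250 cells, which share a library, the stress-response genes Atf3 and Nfkbia ranked together (Spearman rho 0.498), and Fbxo33 went with Atf3 (0.439). AY036118 ran against Atf3 (-0.309), and the other pairs were weaker.

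**Figure D4:**
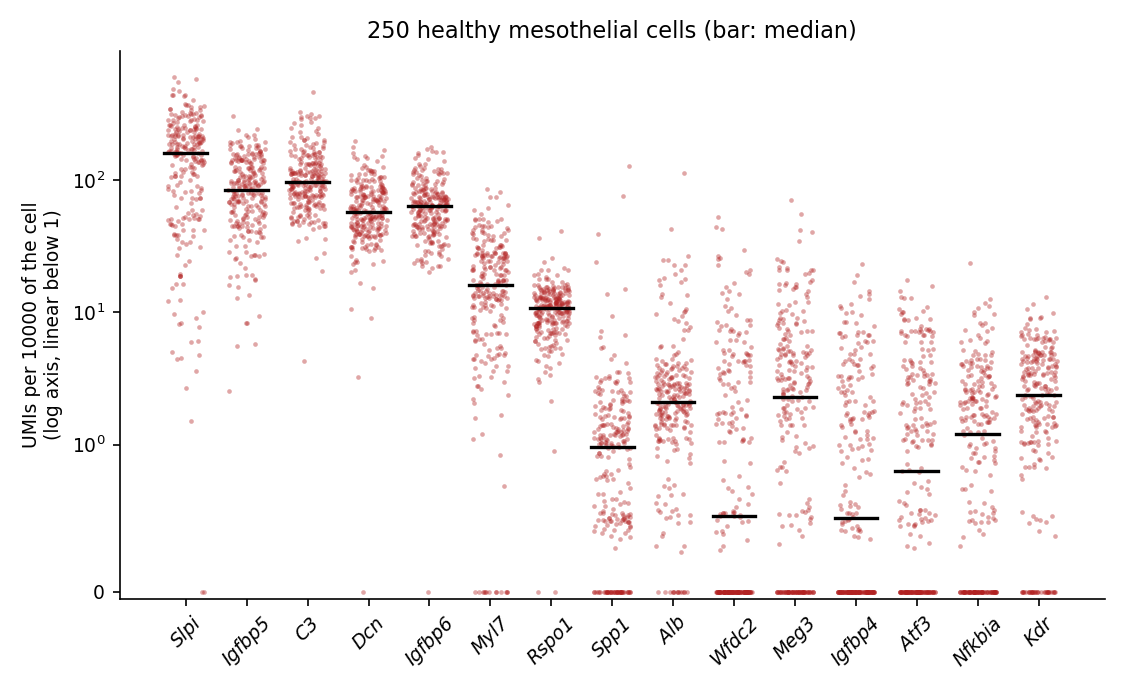
UMIs per 10000 of the cell (log axis, linear below 1) for 15 genes in each of the 250 healthy mesothelial cells, with medians as bars. Slpi, Igfbp5, C3, Dcn, Igfbp6, Myl7 and Rspo1 fill nearly all cells, whereas Wfdc2 is at 0 in 113 cells, Meg3 in 66 and Igfbp4 in 110, and the highest cells reach 126 for Spp1 and 112 for Alb.

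In the CCl4 library the same rule found 1321 of 7130 kept cells (18.5%, 17.6 to 19.5%), with a median of 40 marker UMIs per cell against 126. The 5th percentile was 6 against 24.5, so some of the CCl4 cells lie close to the minimum of 5. Markers of other cell types were not summed in the CCl4 cells. The 2 libraries differ in condition, software version and gene list at once, and each is 1 library, so these cannot be told apart. Among 8552 compared genes, 683 (7.99%) were at least 2-fold higher and 1067 (12.5%) at least 2-fold lower in mesothelial cells of the CCl4 library, or 842 and 880 with TMM scaling. In endothelial gate cells the shares were 7.48% and 11.01% of 8811 genes. Of the rule markers, which the choice of cells fixes in part, Msln was 0.172, Gpm6a 0.273, Upk3b 0.347, Upk1b 0.395 and Lrrn4 0.678 times the healthy level.

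The healthy mesothelial profile was not carried evenly into the CCl4 library. Of 29 compared mesothelial genes outside the rule, 15 were at least 2-fold lower, 3 higher and 11 between. Levels here are over the 30406 genes on both gene lists. Wt1 was at 302 CPM against 292, C3 at 8800 against 9715 and Ptgis at 734 against 733. By contrast Igfbp5 was at 499 against 9506 CPM (ratio 0.0525), Efemp1 at 286 against 4202 (0.068), Igfbp6 at 1122 against 6432 (0.175), Rarres2 at 697 against 4570.3 (0.153), Rspo1 at 246 against 1105 (0.222) and Slpi at 8754 against 17514 (0.4998). Kdr, which the rule used, was at 10.9 against 306 CPM in mesothelial cells, while endothelial gate cells had 1682 and 2114 CPM. Col4a4 was at 8.34 against 181 CPM. The lowest ratios were those of Slc26a3 (2 against 531 UMIs, a ratio of 0.00057 with an interval of 6.9e-05 to 0.0021), Mup3, Ces1d, Prph, Myl7 (49.4 against 2141 CPM, 0.023), Sfmbt2, Ckmt1, Lurap1l, Fibin and Tspan15. Mup3, a hepatocyte product, was also 0.0036 times in endothelial gate cells.

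Genes that were nearly silent in healthy mesothelial cells and high in the CCl4 library were led by Saa3, an acute phase serum amyloid, with 1 UMI (0.24 CPM) in healthy cells and 20648 CPM, a ratio of 85721 with an interval from 15385 to 3385794. In endothelial gate cells Saa3 was at 0.83 and 172 CPM. Ccl2 had 0.72 and 423 CPM (ratio 585, 200 to 2838), against 4.24 and 114 CPM in endothelial gate cells, and Cxcl1 had 3.85 and 408 CPM. Cxcl5, with 0 healthy UMIs, was at least 247-fold higher and Ltbp2 at least 276-fold. Of the 22 listed chemokines and cytokines 12 were compared here, and of the 20 listed cell cycle genes 11. Members near 0 in healthy cells were compared only through the CCl4 library, so how many were higher is fixed in part by the limit on low levels. Among them, Mki67 was at 29.6 against 0 CPM and Top2a at 34.1 against 0.24 CPM in mesothelial cells, and these genes were at 34.6 against 0.34 and 49.5 against 1.32 CPM in endothelial gate cells. Chil1 was at 178 against 0.48 CPM, with 1.22 CPM in endothelial gate cells of the CCl4 library.

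Other genes of this ranking were also far apart in endothelial gate cells. Pdgfra, a receptor of fibroblasts, had a ratio of 213 (91.2 to 656) in mesothelial and 273 (132 to 680) in endothelial gate cells, and Lum of 560 and 512. The mesenchymal marker Col1a1 reached 1348 CPM in endothelial gate cells of the CCl4 library, against 836 CPM in mesothelial cells. Rnasek and Atp6v0c, which encode a ribonuclease and a proton pump subunit, had ratios of 439 and 305 in mesothelial and 227 and 274 in endothelial gate cells, and were under 1 CPM in healthy mesothelial cells and in all other cells of the healthy library. Lgi2, the remaining gene of the ranking, had ratios of 223.5 (61.8 to 1846) and 491 (87.2 to 19501). The part of the software version, of the gene list and of RNA from other cells in these values was not tested.

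**Figure D5:**
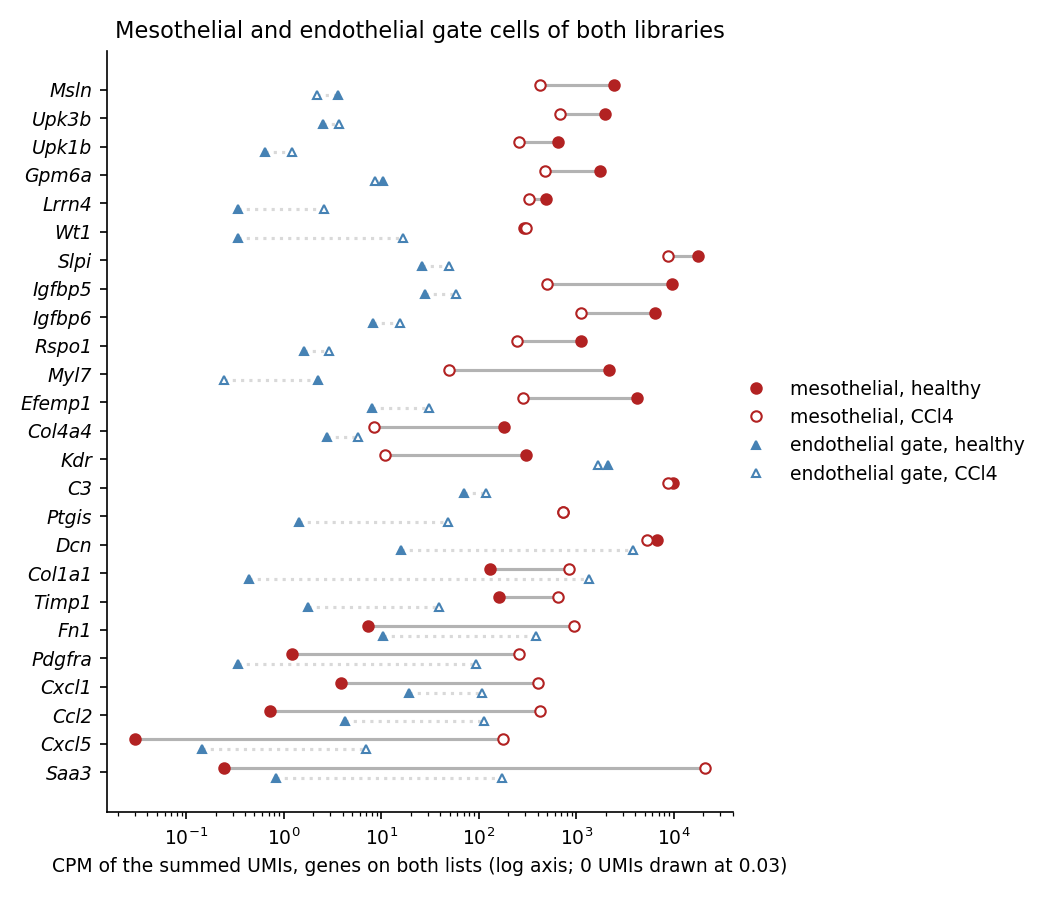
CPM of the summed UMIs (log axis) of 25 genes in mesothelial cells (circles) and endothelial gate cells (triangles) of the healthy library (filled) and the CCl4 library (open), with 0 UMIs drawn at 0.03. Wt1, C3 and Ptgis nearly coincide in mesothelial cells of both libraries, Igfbp5, Efemp1, Myl7 and Kdr lie lower in the CCl4 library, and Saa3 goes from 0.24 to 20648 CPM, while Col1a1 and Pdgfra are farther apart in endothelial gate cells as well.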

How the data were processed

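Single cells were sequenced with a 10x Genomics 3' protocol, and the authors deposited filtered UMI counts per gene and cell. Per the file headers these were made with Cell Ranger 3.1.0 (healthy, 31053 genes) and 6.0.1 (CCl4, 32285 genes), and the submitters' processing notes list the builds GRCh38 and mm10 without a role. The files held 6297 cells with 51122846 UMIs (healthy) and 8460 cells with 97611831 UMIs (CCl4), and 10 barcodes were shared. Cells with at least 1000 UMIs and at most 30% mitochondrial UMIs were kept. UMIs were summed over each population and expressed as CPM, with ratios limited to genes at a mean of at least 10 CPM and named as higher or lower past 2-fold. Since each condition had 1 library, no count model was used, and intervals were exact. A group at 0 UMIs was set at 3 for a bound.

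Genes were named by the highest 20 and lowest 10 ratios (10 and 5 against each gate, 10 and 10 between libraries) at 100 CPM or more in the higher population, by abundance, by excess variation, and from 28 gene lists. Other genes named with values were picked from these lists after their values were seen, and some list members are not reported here by name. The members and lists were chosen with earlier results of these data known. The doublet caller Scrublet (scanpy 1.11.5) was run as an alternative, and no cell was removed in the values reported. That alternative removed the top-scoring cells, 249 in the healthy library, of which 19 were mesothelial. In the CCl4 library it removed 407, of which 120 were mesothelial. TMM factors came from edgeR 4.0.16. Python 3.11.15, numpy 2.4.6, scipy 1.17.1 and pandas 2.3.3 were used. The scripts were tested on simulated data.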

Additional observations from a re-analysis of the deposited data

How the results depend on the processing

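With 1 library per condition, depth gives counting error only, and no alternative can stand in for a replicate. No paired analysis was possible because each condition had 1 library and no test was run. Alternatives covered the cell filters, the gate, doublets, scaling and the limit on low levels, and between 213 (mitochondrial limit of 10%) and 258 (no such limit) cells were selected. Of 100 counts of genes past 2-fold, 84 were within 1.5 times the reported ones and 16 were not, all by the limit on mean CPM, which sets how many genes are compared. At 1 CPM the numbers higher and lower were 1623 and 3705 against all other cells, 1880 and 3365 against cholangiocyte gate cells, 2465 and 3271 against endothelial gate cells, and 1752 and 1919 for CCl4 over healthy. At 50 CPM they were 492 and 603, 540 and 490, 545 and 866, and 230 and 449. Of 1020 ratios of named genes under alternatives, 65 moved beyond their interval and 0 changed direction. Of 1310 list medians 97 moved by 1.5 times or more, and 8 with a reported size of at least 1 in log2 changed direction. Changes of sign in smaller medians were not counted as changes of direction. The antimicrobial median for CCl4 over healthy (-1 in log2) was 4.01 without top-scoring doublets, 1.32 without the 50 most abundant genes, 3.03 at 1 CPM and 3.59 at 50 CPM. The epithelial-mesenchymal transition median against endothelial gate cells (2.25) was -0.40 at 1 CPM. At 50 CPM the chemokine medians against all other cells (-1.23) and endothelial gate cells (-1.002) were 0.050 and 0.68, and the growth signal median for CCl4 over healthy (1.40) was -1.20. The cause was not tested for these medians. The alternatives chosen after seeing the data, comparing only with cells under 5 marker UMIs and leaving out the 30 members under 5000 UMIs, gave 1020 and 1940, and 1015 and 1957.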
